A study of Homo sapiens with 36 samples.

Results

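The 45 genes described here encode the enzymes of glycolysis, the carriers of glucose and lactate, the hypoxia-inducible factor (HIF) pathway and HIF targets. They were chosen by symbol, and all 45 were found among the 74628 genes of the count table. The RNA was that of a Jurkat derivative (Jurkat is an established T cell leukaemia line of human origin). It carried mCherry and stably expressed dCas9-VP64, a Cas9 without nuclease activity joined to a transcriptional activator, and was transduced with a lentiviral pXPR vector for either a guide against RELA (sgRELA), the gene for NF-kB p65, or a non-targeting guide (sgControl). Both guides received puromycin selection for 3 days, and cells were harvested 5, 6 or 7 days after transduction, with 3 biological replicates per guide and day. The 6 groups therefore shared the dCas9-VP64 line, the lentiviral vector and the selection, and differed in guide and day. Each RNA sample gave 2 RamDA-seq libraries of total RNA, 36 in all, and the counts of both were added, which left 18 RNA samples. The labels name 1 guide against RELA and no untransduced cells, and day of harvest and anything else that varied between harvests cannot be told apart.

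Glycolysis splits glucose into pyruvate, and dividing lymphoid cells run it at high rates and release much of the pyruvate as lactate. HIF is a pair of an oxygen-regulated alpha subunit (HIF1A or EPAS1) and the stable subunit ARNT. The prolyl hydroxylases EGLN1, EGLN2 and EGLN3 mark the alpha subunit for the ubiquitin ligase that contains VHL. When hydroxylation slows, the pair binds hypoxia response elements and raises glucose carriers, most glycolytic enzymes, PDK1 and mitophagy genes. HIF1A itself is controlled mainly at the protein level, which these data do not measure.

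The core of a hypoxia response element is ACGTG or GCGTG. Promoters of 6 members are shown as examples of the courses described further on, and not as a sign that cores go with a course. LDHA and PGK1 fell and then rose, BNIP3 and P4HA1 fell by day 6, ALDOC had its largest fall in sgControl by day 7, and LDHB was highest on day 7. Each line is the 250 bases before the RefSeq start of the gene on GRCh38.p14, 5′ to 3′ on the gene's strand, with every ACGTG or GCGTG on either strand in capitals.
LDHA: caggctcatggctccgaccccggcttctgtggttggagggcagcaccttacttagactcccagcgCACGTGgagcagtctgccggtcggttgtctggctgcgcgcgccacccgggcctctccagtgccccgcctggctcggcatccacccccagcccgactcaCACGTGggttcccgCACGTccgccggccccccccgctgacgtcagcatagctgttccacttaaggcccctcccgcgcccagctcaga
PGK1: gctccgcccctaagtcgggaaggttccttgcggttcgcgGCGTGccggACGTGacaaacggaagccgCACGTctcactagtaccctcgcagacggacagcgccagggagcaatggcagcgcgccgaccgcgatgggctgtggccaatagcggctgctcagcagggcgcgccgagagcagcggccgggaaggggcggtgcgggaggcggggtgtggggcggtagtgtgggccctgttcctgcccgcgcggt
BNIP3: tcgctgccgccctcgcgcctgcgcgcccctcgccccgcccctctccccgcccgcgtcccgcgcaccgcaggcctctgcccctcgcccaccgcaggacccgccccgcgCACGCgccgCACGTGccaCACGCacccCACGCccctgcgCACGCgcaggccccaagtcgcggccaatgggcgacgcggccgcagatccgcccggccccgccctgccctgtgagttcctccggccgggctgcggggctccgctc
P4HA1: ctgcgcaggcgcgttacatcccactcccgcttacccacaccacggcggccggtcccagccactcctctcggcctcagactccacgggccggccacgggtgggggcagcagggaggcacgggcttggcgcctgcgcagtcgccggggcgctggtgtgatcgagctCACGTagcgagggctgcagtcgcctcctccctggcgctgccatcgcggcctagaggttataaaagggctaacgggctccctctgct
ALDOC: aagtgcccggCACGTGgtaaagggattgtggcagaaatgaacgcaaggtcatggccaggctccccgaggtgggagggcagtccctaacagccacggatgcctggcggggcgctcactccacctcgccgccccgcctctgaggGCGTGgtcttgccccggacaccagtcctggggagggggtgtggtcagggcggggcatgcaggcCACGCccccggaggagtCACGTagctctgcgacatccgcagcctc
LDHB: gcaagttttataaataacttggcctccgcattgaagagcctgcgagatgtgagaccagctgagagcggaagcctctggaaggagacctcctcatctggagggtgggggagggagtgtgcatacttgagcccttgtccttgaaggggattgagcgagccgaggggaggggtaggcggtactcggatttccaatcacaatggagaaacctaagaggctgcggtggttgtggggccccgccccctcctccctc
The windows lie at chr11:18394313-18394562 (plus strand), chrX:78103998-78104247 (plus), chr10:131981924-131982173 (minus), chr10:73096867-73097116 (minus), chr17:28576896-28577145 (minus) and chr12:21657843-21658092 (minus). LDHA held 5 such cores, BNIP3 6, ALDOC 5, PGK1 3, P4HA1 1 and LDHB 0. SLC2A1, HK1, PDK1, TPI1, PGAM1 and PKM fell by day 6 in both guides, and their windows held 0. RefSeq promoters were at hand for 38 of the 45 genes, and ACGTG stood in 16 of them (42.1%), against 18.5% of all 35116 promoters of that length and 21.4% of the 18750 promoters of genes tested here. GCGTG was found in 13 members (34.2%), against 32.2% of all promoters and 40.9% of those of tested genes. Either core stood in 24 members (63.2%), against 43.2% of all promoters and 52.3% of those of tested genes. Both palindromic sites in LDHA and the sites in BNIP3 and ALDOC written CACGTG count as ACGTG on both strands. That 6-base word, to which MYC and other E-box proteins can also bind, was in 7 members (18.4%) and in 7.81% of promoters of tested genes. A match to these letters is a description of the window and not evidence of binding.

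The 18 RNA samples held 18769530 to 29503934 counts. Levels are given as CPM, a gene's counts relative to the total of the sample after TMM scaling. RELA was at 20.2 to 39.3 CPM in the 9 sgControl samples and at 119.8 to 318 CPM in the 9 sgRELA samples, without overlap. In sgRELA it was at 263 to 318 CPM on day 5, 187 to 223 on day 6 and 120 to 136 on day 7. The log2 fold change of RELA between guides was 3.14, 3.07 and 2.36 on these days, so the activation compared was not equal across days. All 12 T cell markers were detected in each group, with a summed level of 3180 to 4282 CPM, lowest on day 5 and highest on day 7 in both guides. Of 4 B cell markers only CD79A had a median above 1 CPM, and the summed B cell level was 16.5 to 26.2 CPM in sgControl and 48.4 to 62.7 CPM in sgRELA. Myeloid markers summed to at most 3.99 CPM and epithelial and stromal markers to at most 10.3 CPM, the latter mostly from COL1A1. Mitochondrially encoded genes took 8.33% to 9.87% of counts on day 6 and 7.41% to 9.28% on days 5 and 7. The part of T cell marker level and mitochondrial share in the changes between days was not tested. Leaving the mitochondrially encoded genes out moved no count of members by over 1.5 times. That setting alters only the scaling and the genes tested, so it does not test that part. A library of sgControl day 5 replicate 2 and one of sgControl day 6 replicate 1 had few detected genes (25398 and 26526, against a median of 27632 over all libraries), and results that change without them are named.

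Levels are first compared per kilobase of exon, where the length is that of all exons annotated for the gene in GENCODE v29, joined. Transcripts expressed here can be shorter, so levels and shares per length depend on that annotation. LDHA was given 6210 bases and LDHB 2983, and in CPM the median of LDHA (1002) was above that of LDHB (699). GAPDH stood highest, with a median of 487 CPM per kb, followed by LDHB (234), ENO1 (221), LDHA (161), PGAM1 (158) and PGK1 (148). The lowest GAPDH sample stood above the highest of any other member, while the ranges of the next 5 overlapped, so their order is not firm. Of the HIF subunits HIF1A had a median of 23.6 CPM per kb, ARNT 18.2 and EPAS1 1.09. HK1 and HK2 had near-equal medians, 13.9 and 13.8 CPM per kb, while PFKP (44.7) was far above PFKL (8.59) and PFKM (1.78). At the low end, ANKRD37, CA9, ADM and P4HA2 had medians of 0.228, 0.0982, 0.0827 and 0.0174 CPM per kb, with 47 counts at most in any sample. ALDOA was low too, with 13 to 49 counts per sample. An annotated transcript unit, ENSG00000285043 at chr16:30053090-30070420, covers most of ALDOA (chr16:30064164-30070457), and how reads common to both were counted is not given, so the level of ALDOA is uncertain. Pseudogenes, taken by name with no comparison of sequence, took 3.55% to 5.51% of the counts of GAPDH and its copies. The shares were 5.53% to 23.1% for BNIP3 and 17.7% to 54.1% for SLC2A3. How multi-mapping reads were treated is not given, so these levels are uncertain by an amount that the shares do not bound. Exons of PFKM, SLC16A3, CA9 and ANKRD37 overlap those of a neighbour on the opposite strand with many more counts (SENP1, CSNK1D, ARHGEF39 and UFSP2). Since the strand setting of the counts is not given, reads of each pair cannot be told apart.

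Together the 45 genes took 1.09% to 1.22% of all counts in sgControl on day 5, 0.768% to 0.815% on day 6 and 0.874% to 0.901% on day 7. In sgRELA the shares were 1.11% to 1.16%, 0.637% to 0.702% and 0.872% to 0.887%. In both guides the 3 days did not overlap: day 5 was highest, day 6 lowest and day 7 between. In these bulk samples, fewer cells of a kind and less RNA per cell cannot be told apart. The summed share weighs abundant genes most, whereas the heat map shows each member relative to its own mean. It is mostly red on day 5 and bluer on day 6. From day 6 to day 7 the members did not all follow the sum. The log2 fold change was below 0 for 31 of 45 in sgControl and for 22 in sgRELA. On day 7 part of the glycolytic enzymes, such as PGK1, ENO1 and LDHA, rose again. Others, such as HK1, PFKL and ALDOC, were still below day 5, as were most HIF targets. Day 7 lay below day 6 without overlap for ALDOC in both guides and for HK1 and PFKL in sgControl.

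**Figure D1:**
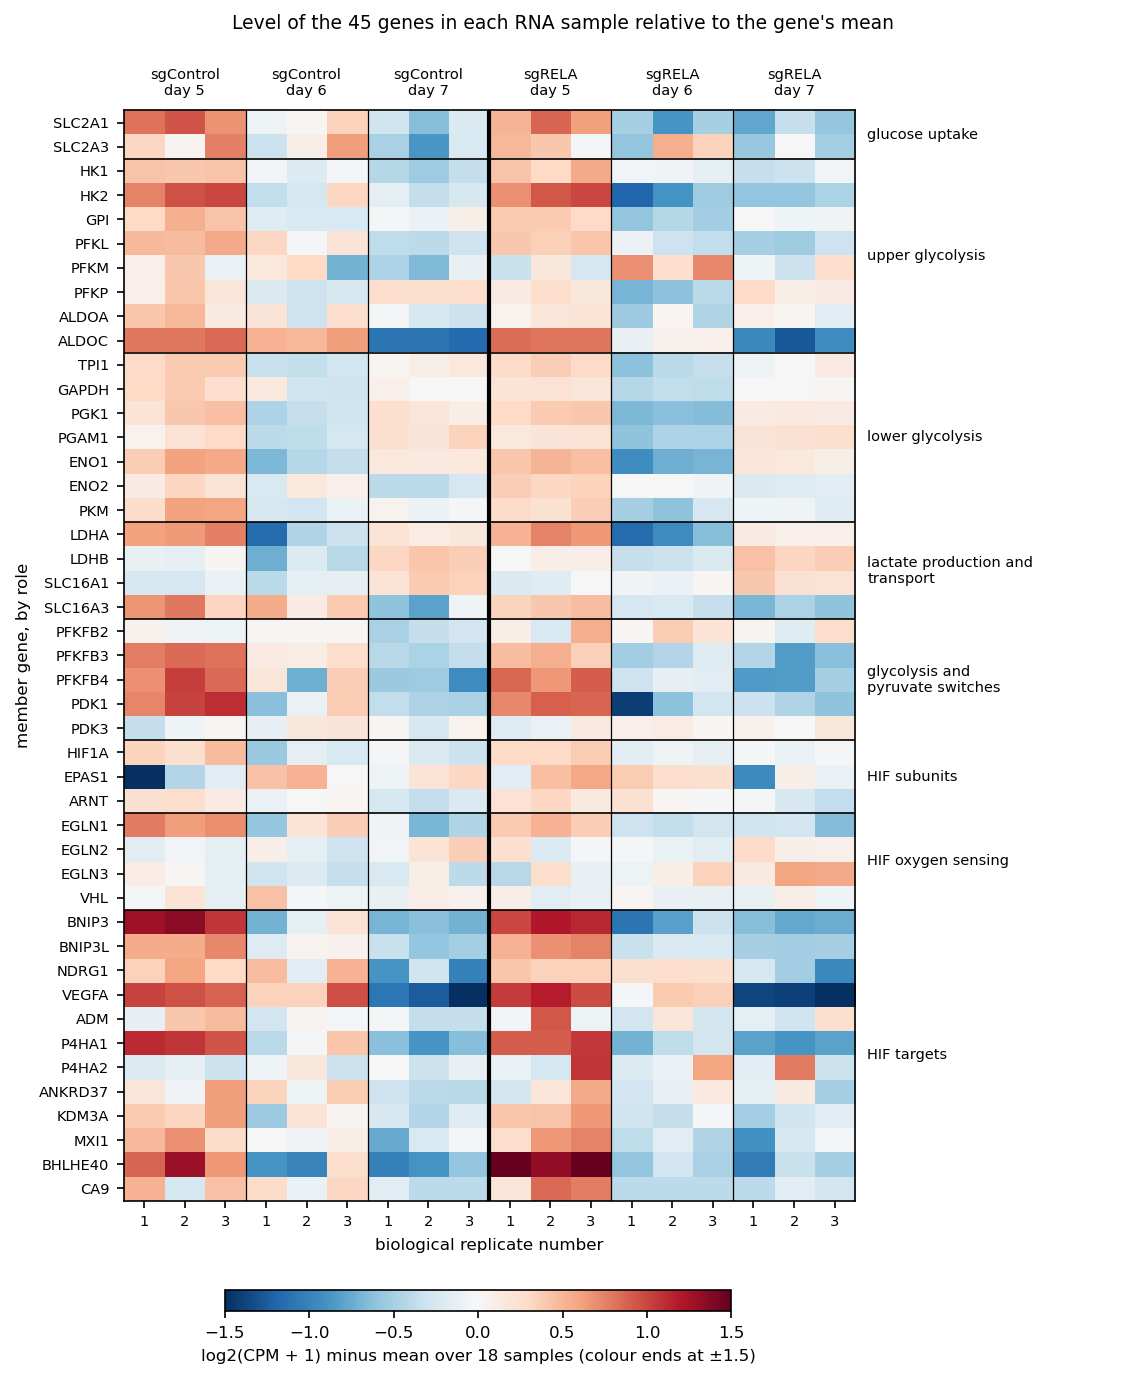
Rows are the 45 genes by role and columns the 18 RNA samples by guide, day and replicate number. Colour is log2(CPM + 1) minus the gene's mean over the 18 samples and ends at ±1.5; day 5 columns are mostly red, VEGFA and ALDOC turn deep blue only on day 7, and LDHB and SLC16A1 are reddest on day 7.

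Between day 5 and day 6, 24 of the 45 genes fell and none rose in sgControl at an adjusted p under 0.05 (edgeR's quasi-likelihood test with Benjamini-Hochberg adjustment, used throughout). Among all 27553 genes tested, 5.58% were lower and 3.29% higher by that rule. In sgRELA 30 fell and none rose, against 4.34% lower and 2.57% higher among all genes. Since members are expressed above most genes, they were also set beside the 12529 genes with a mean of at least 5 CPM: 11.9% of these were lower in sgControl and 9.35% in sgRELA, against 24 and 29 of the 40 members at that level. All 24 genes that fell in sgControl also fell in sgRELA, as a count of shared names. The median log2 fold change of the members was -0.49 in sgControl and -0.74 in sgRELA, and that of all genes 0.04 and 0.03.

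From day 6 to day 7 the members went both ways. In sgControl 9 rose and 13 fell, where 8.25% of all genes were higher and 6.31% lower. Among genes of at least 5 CPM 17.4% were higher and 11.4% lower, beside 22.5% and 32.5% of the 40 members at that level, so the share that rose lay near the background. In sgRELA 11 rose and 3 fell, where 7.21% of all genes were higher and 5.02% lower. At 5 CPM or more 15.4% of genes were higher and 9.12% lower, beside 27.5% and 7.5% of the 40 members, so the share that fell was no larger than the background. The 9 genes that rose in sgControl also rose in sgRELA, and 3 fell in both. Over the whole interval, day 7 against day 5, 28 fell and 2 rose in sgControl, beside 6.36% lower and 6.65% higher among all genes. In sgRELA 27 fell and 2 rose, beside 6.06% lower and 6.35% higher. At 5 CPM or more the shares of genes that were lower were 12.1% and 11.6%, beside 70% and 67.5% of the members, and the shares that were higher 13.2% and 12.8%, beside 5% of the members in each guide. The 2 that rose in each guide were LDHB and SLC16A1, and 26 fell in both guides.

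Glucose enters through SLC2A1 (GLUT1), the widespread carrier, and SLC2A3 (GLUT3), a high-affinity carrier. SLC2A1 was at 105, 114 and 94.2 CPM in sgControl on day 5, 55.6, 59.9 and 75.2 on day 6 and 47.7, 37.6 and 50.6 on day 7. The sgRELA samples stood at 84.5, 109 and 90.7 CPM on day 5, 41.5, 31.5 and 41.4 on day 6 and 33.9, 45.9 and 39.1 on day 7. Day 5 lay above both later days in each guide without overlap, and the log2 fold change ± SE from day 5 to day 7 was -1.20 ± 0.15 (adjusted p 5.56e-07) in sgControl and -1.26 ± 0.15 (adjusted p 2.79e-07) in sgRELA. SLC2A3 was lower and more scattered, at 16.6, 13.6 and 23.1 CPM on day 5, 10.4, 14.1 and 21 on day 6 and 9.15, 6.81 and 11.2 on day 7 in sgControl and at 19.1, 17.9 and 13 CPM on day 5, 8.47, 19.7 and 17.1 on day 6 and 8.63, 13.3 and 8.98 on day 7 in sgRELA. Days 5 and 7 did not overlap in sgControl and overlapped in sgRELA. In sgControl SLC2A3 changed from day 5 to day 7 by -0.97 ± 0.29 (adjusted p 0.022) log2 units. The sgRELA value was -0.69 ± 0.29 (adjusted p 0.121), which did not pass. The sgControl call for SLC2A3 was lost without sgControl day 5 replicate 3 (-0.74), day 7 replicate 1 (-0.98) or day 7 replicate 2 (-0.81), and without the libraries with few detected genes.

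Hexokinase traps glucose in the cell as its phosphate. HK2, the inducible form, was at 167, 193 and 199 CPM in sgControl on day 5, 76.6, 83.5 and 123 on day 6 and 90.5, 77.3 and 83.8 on day 7. The sgRELA samples gave 161, 189.8 and 201 CPM on day 5, 43.1, 53 and 68.1 on day 6 and 65.4, 66.2 and 71 on day 7. All 6 day 5 samples exceeded all 12 later ones, and the fall by day 6 was -0.98 ± 0.14 (adjusted p 2.56e-05) in sgControl and -1.75 ± 0.15 (adjusted p 1.67e-09) in sgRELA, on the log2 scale. HK1, the constitutive form, was at 122, 119.8 and 122 CPM on day 5, 87.5, 78 and 89.2 on day 6 and 66.9, 62.3 and 70.2 on day 7 in sgControl, and at 122, 111 and 134 CPM on day 5, 87.5, 87.4 and 81.8 on day 6 and 70.7, 72.4 and 88 on day 7 in sgRELA. Day 5 was highest in both guides, and day 7 against day 5 was -0.86 ± 0.10 and -0.67 ± 0.10. The share of HK2 in the HK1 and HK2 sum, per length, went from 58.8%-63.0% on day 5 to 47.6%-58.9% on day 6 in sgControl, and from 57.8%-64.0% to 33.8%-46.4% in sgRELA. The ranges of these days overlapped slightly in sgControl and not in sgRELA.

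Of the next steps, GPI (glucose-6-phosphate isomerase) and the phosphofructokinase PFKP fell by day 6 and rose by day 7. PFKP was at 210.0 to 264, 160.3 to 170.3 and 235 to 238 CPM on days 5, 6 and 7 in sgControl and at 216 to 239, 122 to 149 and 211 to 242 in sgRELA. In each guide its day 6 samples lay below those of the other days, and day 7 against day 5 gave a log2 fold change of 0.02 (95% confidence interval -0.16 to 0.21) and -0.02 (-0.20 to 0.17). PFKL, the liver-type subunit, was at 112, 111 and 118 CPM on day 5, 98.7, 78.6 and 91 on day 6 and 61.1, 60.3 and 63.8 on day 7 in sgControl, and at 105, 102 and 107 CPM on day 5, 74.8, 63.8 and 61.2 on day 6 and 56, 54.6 and 64 on day 7 in sgRELA. Its day 5 samples were highest and day 7 against day 5 was -0.88 ± 0.11 and -0.85 ± 0.11 on the log2 scale. The share of PFKP among the 3 subunits, per length, stood at 84.9%-86.1% on day 7 and 75.1%-78.7% on day 5 in sgControl. PFKM, the muscle form, passed no test between days.

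ALDOC, a fructose-bisphosphate aldolase and known HIF target, had the smallest p among members between day 7 and day 5 in sgControl. Its level there was 85.9, 85.9 and 89.8 CPM on day 5, 71.3, 69.8 and 76.2 on day 6 and 22.4, 22.6 and 21.4 on day 7. Its sgRELA levels were 88.4, 86.6 and 86.2 CPM on day 5, 45.3, 51.6 and 51.8 on day 6 and 24.8, 19.8 and 25.1 on day 7. The 3 days did not overlap in either guide. In sgControl the first step did not pass (-0.27 ± 0.11, adjusted p 0.149) and the second did (-1.71 ± 0.12, adjusted p 3.47e-12). In sgRELA both steps passed, at -0.81 ± 0.11 (adjusted p 1.2e-05) and -1.09 ± 0.12 (adjusted p 2.49e-08). From day 5 to day 7 the values were -1.98 ± 0.12 and -1.91 ± 0.12 on the log2 scale.

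In the lower part of the pathway 6 of 7 genes fell by day 6 in sgControl and 7 of 7 in sgRELA. PGK1 (phosphoglycerate kinase, the first ATP-forming step) was at 852, 981 and 1013 CPM in sgControl on day 5, 536, 581 and 600.5 on day 6 and 880.2, 842 and 795 on day 7. In sgRELA the levels were 912, 973 and 979.6 CPM on day 5, 464, 480.1 and 471 on day 6 and 804, 821 and 809 on day 7. Day 6 was lowest in both guides with no overlap, with log2 fold changes of -0.73 ± 0.07 (adjusted p 1.22e-08) and -1.02 ± 0.07 (adjusted p 8.55e-12), and the rise to day 7 was 0.55 ± 0.07 (adjusted p 2.71e-07) and 0.78 ± 0.07 (adjusted p 4.28e-10). Day 7 against day 5 was -0.18 ± 0.07 (adjusted p 0.0798) in sgControl, which did not pass, and -0.24 ± 0.07 (adjusted p 0.0164) in sgRELA. The latter call was lost without sgRELA day 5 replicate 2 or 3 or day 7 replicate 1 or 3 (-0.22 to -0.23).

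ENO1 (enolase) had the widest swing of this group, at 1357 to 1592, 656 to 819.6 and 1159.9 to 1171 CPM on days 5, 6 and 7 in sgControl and 1395 to 1490.1, 549 to 647 and 1115 to 1191 in sgRELA. Its 3 days were separate in each guide, with steps of -0.998 ± 0.07 and 0.63 ± 0.07 in sgControl and -1.24 ± 0.07 and 0.93 ± 0.07 in sgRELA, log2 scale. The neuron-enriched isozyme ENO2 changed by -0.21 ± 0.09 to day 6 in sgControl, which did not pass, and fell by 0.36 ± 0.09 in sgRELA. Its share of enolase per length was 16.3%-19.6% on day 5, 25.3%-32.4% on day 6 and 14.6%-17.3% on day 7 over both guides. GAPDH, often used as a reference gene, was at 1779, 1894 and 1711 CPM on day 5, 1599, 1169.8 and 1162 on day 6 and 1514, 1439 and 1443 on day 7 in sgControl. The sgRELA levels of GAPDH were 1660.4, 1669.5 and 1641 CPM on day 5, 1067, 1119 and 1108 on day 6 and 1448, 1438 and 1453 on day 7. Day 5 was highest in each guide, day 6 replicate 1 of sgControl (which holds a library with few detected genes) stood above the other day 6 samples, and GAPDH fell by day 6 by 0.45 ± 0.08 and 0.59 ± 0.08 log2 units. Its sgControl difference between day 7 and day 5 was -0.29 ± 0.08 (adjusted p 0.00864), a call that was lost without sgControl day 5 replicate 2 (-0.25). PGAM1 (phosphoglycerate mutase) had no passing difference between day 7 and day 5, at 0.07 (95% interval -0.08 to 0.22) and 0.03 (-0.12 to 0.18). TPI1 and PKM also fell by day 6 in both guides, with log2 fold changes of -0.68 and -0.71 in sgControl.

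Lactate dehydrogenase is a tetramer of the LDHA subunit, which favours lactate formation, and LDHB, which favours pyruvate. LDHA was at 1401, 1439 and 1553 CPM in sgControl on day 5, 415, 672 and 735 on day 6 and 1065, 999 and 1036 on day 7. The sgRELA samples had 1323, 1551 and 1444 CPM on day 5, 415, 477 and 591 on day 6 and 1005, 970.2 and 976 on day 7. Its 3 days were separate in each guide, and the fall to day 6 was -1.27 ± 0.12 (adjusted p 3.96e-08) and -1.54 ± 0.13 (adjusted p 8.28e-10), followed by rises of 0.77 ± 0.12 (adjusted p 2.65e-05) and 0.99 ± 0.12 (adjusted p 5.3e-07), all as log2 fold changes. The lowest sgControl sample, replicate 1 of day 6, includes one of the libraries with few detected genes.

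LDHB took another course. It was at 639, 628 and 709 CPM on day 5, 413, 596 and 517 on day 6 and 856, 919 and 889 on day 7 in sgControl, and at 688, 736 and 737 CPM on day 5, 542, 552 and 590.0 on day 6 and 930.0, 859 and 888 on day 7 in sgRELA. A fall to day 6 (-0.37 ± 0.08 and -0.36 ± 0.08) was followed by a rise that passed the day 5 level, so that day 7 exceeded day 5 by 0.43 ± 0.08 (adjusted p 0.000593) and 0.31 ± 0.08 (adjusted p 0.0132) log2 units. The LDHA share of both subunits per length was 48.0%-52.4% on day 5 and, over days 6 and 7, 26.9%-40.6%, with no overlap. Of the lactate carriers, SLC16A1 (MCT1) was at 163 to 198 CPM on day 6 and 249.7 to 285 on day 7 in sgControl, and at 204 to 220.3 and 249.8 to 287 CPM in sgRELA. It rose in the second step alone, by 0.54 ± 0.09 and 0.32 ± 0.09. SLC16A3 (MCT4), the HIF-responsive exporter, fell from day 5 to day 7 by 1.13 ± 0.21 and 1.06 ± 0.21, so the carriers moved in opposite directions.

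**Figure D2:**
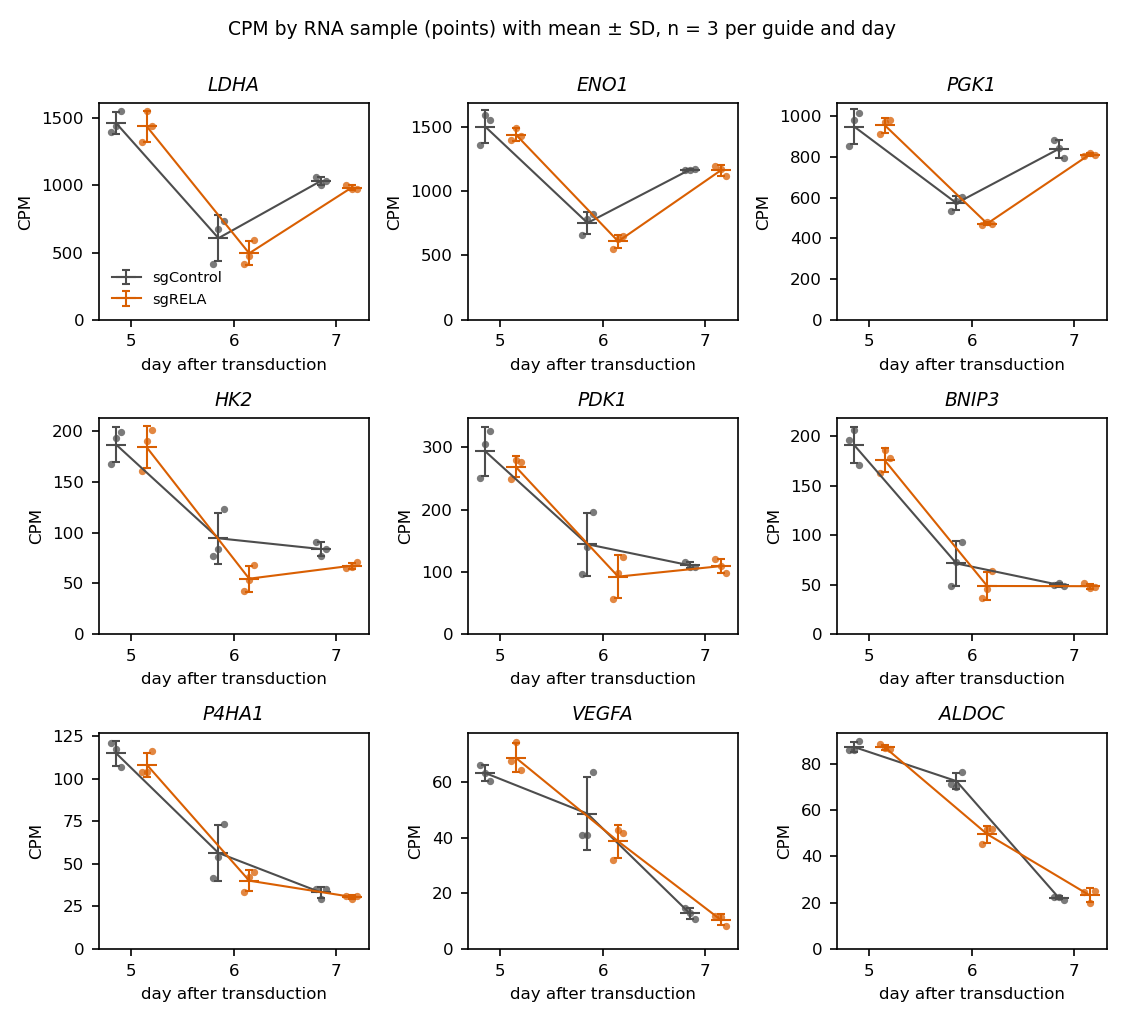
CPM (linear axis from 0) of 9 members against day, with 1 point per RNA sample and the mean ± SD of 3 samples for sgControl (grey) and sgRELA (orange). The top row dips on day 6 and rises again, HK2, PDK1, BNIP3 and P4HA1 stay down after day 6, and VEGFA and ALDOC reach their lowest levels on day 7.

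The kinases of the PFKFB family make and remove fructose 2,6-bisphosphate, the activator of phosphofructokinase. PFKFB3, the form with the highest kinase bias, was at 114, 122 and 118 CPM on day 5, 72.9, 72.3 and 80.4 on day 6 and 49.9, 47.8 and 52.1 on day 7 in sgControl. In sgRELA PFKFB3 was at 92.8, 97.7 and 85.9 CPM on day 5, 46.3, 48.9 and 59 on day 6 and 48.8, 37 and 42.8 on day 7. In sgControl the 3 days were separate and both steps passed (-0.65 ± 0.11 and -0.59 ± 0.11), while in sgRELA the first step passed (-0.84 ± 0.11) and days 6 and 7 overlapped. PFKFB4 was at 36.8, 47.4 and 41.2 CPM on day 5, 25.7, 13.1 and 29.3 on day 6 and 14.9, 15.2 and 11.2 on day 7 in sgControl, and at 41.6, 36 and 43.2 CPM on day 5, 18, 20.7 and 19.96 on day 6 and 12.1, 12.2 and 15.6 on day 7 in sgRELA. Day 5 stood apart in both guides, and the log2 fold change from day 5 to day 7 was -1.60 in each. PFKFB2 passed no test between days, and its share of the 3 enzymes per length was 20.2%-23.6% on day 5 and 32.8%-36.5% on day 7 in sgControl.

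PDK1 phosphorylates pyruvate dehydrogenase and so keeps pyruvate out of the mitochondrion. It was at 249.8, 306 and 325 CPM in sgControl on day 5, 96.7, 139.9 and 197 on day 6 and 116, 108 and 107 on day 7. With sgRELA it was at 249, 279.9 and 276 CPM on day 5, 56, 98.1 and 124 on day 6 and 120.2, 109.6 and 98.3 on day 7. All day 5 samples lay above all later ones, day 6 was the most scattered day in both guides, and the log2 fold change from day 5 to day 7 was -1.41 ± 0.19 (adjusted p 3.02e-06) and -1.30 ± 0.19 (adjusted p 1.08e-05). PDK3, the isozyme with the higher level per length, passed no test, with day 7 against day 5 at 0.08 (95% interval -0.14 to 0.30) and 0.12 (-0.10 to 0.34). The PDK1 share of both kinases per length was 29.3%-34.8% on day 5 and 8.11%-22.2% on day 6, without overlap.

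Among the HIF subunits, HIF1A RNA was at 159, 149 and 175 CPM on day 5, 85.4, 115 and 108 on day 6 and 124, 108 and 101 on day 7 in sgControl. In sgRELA HIF1A was at 156, 156 and 165 CPM on day 5, 112, 119 and 114 on day 6 and 124, 118 and 125 on day 7. Day 5 was highest with no overlap in either guide, with log2 fold changes by day 6 of -0.65 ± 0.10 (adjusted p 6.03e-05) and -0.46 ± 0.10 (adjusted p 0.00327). Day 7 against day 5 gave -0.54 ± 0.10 and -0.38 ± 0.10, and the sgRELA call was lost without sgRELA day 5 replicate 3 or day 7 replicate 2 (-0.35 each). ARNT fell by 0.50 ± 0.10 and 0.44 ± 0.10 between day 5 and day 7. EPAS1 (HIF-2 alpha) passed no test and had the opposite sign in sgControl, at 1.75, 4.98 and 6.26 CPM on day 5, 9.95, 10.6 and 7.05 on day 6 and 6.67, 8.3 and 9 on day 7. There day 5 was lowest with no overlap, with log2 fold changes of 1.08 ± 0.36 (adjusted p 0.0524) by day 6 and 0.88 ± 0.35 (adjusted p 0.106) by day 7. In sgRELA EPAS1 was at 6.16, 10.04 and 11.1 CPM on day 5, 9.52, 8.68 and 8.52 on day 6 and 3.15, 7.59 and 6.54 on day 7, where day 5 overlapped both later days (-0.03 ± 0.35 and -0.66 ± 0.35).

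The 4 genes of oxygen sensing did not move as a block. EGLN1, the main oxygen sensor of normoxic cells, was at 94.7, 85.5 and 89.3 CPM on day 5, 36.3, 63.3 and 71.2 on day 6 and 53, 33.9 and 39.8 on day 7 in sgControl, and at 72.1, 78.9 and 71.4 CPM on day 5, 43.9, 42.4 and 45 on day 6 and 44.5, 44.6 and 34.6 on day 7 in sgRELA. Day 5 was highest in both guides without overlap, and day 7 against day 5 was -1.09 ± 0.17 (adjusted p 3.13e-05) and -0.84 ± 0.17 (adjusted p 0.000807). The fall by day 6 in sgControl (-0.66 ± 0.17) was lost without sgControl day 6 replicate 1 (-0.42), the lowest sample of that day. EGLN2 and EGLN3 passed no test. EGLN3, a HIF-inducible hydroxylase, was at 11.8, 11 and 9.8 CPM on day 5, 8.68, 9.29 and 8.33 on day 6 and 9.15, 11.7 and 8.05 on day 7 in sgControl, and at 7.9, 13.3 and 10.04 CPM on day 5, 10.3, 11.6 and 14.1 on day 6 and 12.1, 16.9 and 16.7 on day 7 in sgRELA. A pseudogene took up to 27.2% of the counts of EGLN3 and its copy. VHL, the substrate-binding subunit of the ligase, was at 97, 114 and 89.7 CPM on day 5, 134, 97.1 and 93.4 on day 6 and 91.3, 106 and 103 on day 7 in sgControl. With sgRELA it was at 105, 88.3 and 90.9 CPM on day 5, 100.3, 91.4 and 91.5 on day 6 and 90.8, 105 and 93.8 on day 7, and the days overlapped in both guides. For its log2 difference between day 7 and day 5, the 95% interval ran from -0.25 to 0.24 with sgControl and from -0.22 to 0.28 with sgRELA.

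Of the 12 HIF targets, 8 fell between day 5 and day 7 in each guide and none rose. BNIP3, a mitophagy receptor of the outer mitochondrial membrane, was at 196, 207 and 171 CPM on day 5, 48.7, 72.8 and 93.5 on day 6 and 49.4, 52 and 48.8 on day 7 in sgControl. In sgRELA BNIP3 was at 163, 187 and 178 CPM on day 5, 37.2, 45.5 and 64 on day 6 and 51.5, 46.8 and 47.8 on day 7. Every day 5 sample was well above every later one, with a log2 fold change by day 6 of -1.42 ± 0.16 (adjusted p 6.79e-07) and -1.85 ± 0.17 (adjusted p 5.4e-09). Days 6 and 7 overlapped in both guides, and the further fall called in sgControl (-0.52 ± 0.16) was lost without day 6 replicate 2 or 3 or without any 1 replicate of day 7 (-0.27 to -0.55). Its relative BNIP3L was at 224, 224 and 250.2 CPM on day 5, 133, 157 and 159 on day 6 and 120.5, 101 and 106 on day 7 in sgControl, and at 218, 245 and 254 CPM on day 5, 120.1, 129.9 and 129.8 on day 6 and 107, 105 and 107 on day 7 in sgRELA. All 3 days were separate in each guide, and day 7 against day 5 gave -1.09 ± 0.09 and -1.17 ± 0.09.

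P4HA1, a collagen prolyl hydroxylase subunit, was at 121, 117 and 107 CPM on day 5, 41.5, 54 and 73.7 on day 6 and 35.3, 29.4 and 35.1 on day 7 in sgControl. The sgRELA levels were 104, 104 and 116 CPM on day 5, 33.3, 42.1 and 45.2 on day 6 and 31.2, 29.5 and 31.2 on day 7. The days were separate in both guides, and day 7 against day 5 was -1.79 ± 0.15 (adjusted p 6.06e-10) and -1.82 ± 0.15 (adjusted p 3.91e-10) on the log2 scale. BHLHE40, a repressor of the E-box class, was at 25.3 to 40.2 CPM on day 5 and 7.37 to 19.1 on day 6 in sgControl, a log2 fold change of -1.46 ± 0.26. In sgRELA BHLHE40 was at 41.2 to 50.9 and 10.2 to 12.8 CPM, with -2.06 ± 0.27. KDM3A, a histone demethylase, and MXI1, an antagonist of MYC, fell as well, with log2 fold changes from day 5 to day 7 of -0.75 and -0.83 in sgControl and -0.83 and -0.94 in sgRELA.

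VEGFA, the angiogenic growth factor, and NDRG1, a stress-response gene, had their lowest levels on day 7. VEGFA was at 66.2, 63.3 and 60.2 CPM on day 5, 41.1, 41 and 63.7 on day 6 and 14.7, 13 and 10.7 on day 7 in sgControl. In sgRELA VEGFA was at 67.5, 74.3 and 64.2 CPM on day 5, 31.9, 42.6 and 41.5 on day 6 and 11.7, 11.6 and 8.35 on day 7. Day 7 was lowest with no overlap in both guides, and the second step was -1.93 ± 0.17 (adjusted p 1.12e-09) and -1.87 ± 0.18 (adjusted p 2.58e-09). The first was -0.38 ± 0.17, not passing, and -0.83 ± 0.17. NDRG1 was at 33.9, 40.4 and 32.8 CPM on day 5, 37, 23.6 and 38.5 on day 6 and 13.9, 21.3 and 12.6 on day 7 in sgControl and 35.7, 34 and 34 CPM on day 5, 31.4, 31.9 and 31.5 on day 6 and 21.9, 18.2 and 13 on day 7 in sgRELA. Its first step passed in neither guide, and its second was -1.05 ± 0.20 (adjusted p 0.000261) and -0.84 ± 0.20 (adjusted p 0.00369).

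The remaining targets had low counts. CA9, a carbonic anhydrase used as a hypoxia marker, had 12, 34 and 36 counts in sgRELA on day 5 and 0, 0 and 0 on day 6, which was at least 21.6-fold lower against a floor of 3 counts over the 3 samples. That call (adjusted p 0.0154) was lost without any 1 of the 3 sgRELA day 6 replicates, with DESeq2 and with library 2 alone. The sgRELA day 7 samples had 0, 4 and 2 counts. In sgControl CA9 had 20, 2 and 18 counts on day 5, 12, 5 and 14 on day 6 and 4, 0 and 0 on day 7. ADM, the vasodilator peptide adrenomedullin, had 4, 15 and 18 counts on day 5, 1, 7 and 6 on day 6 and 6, 0 and 0 on day 7 in sgControl, and 6, 36 and 6 on day 5, 1, 10 and 1 on day 6 and 4, 1 and 12 on day 7 in sgRELA, and passed no test. P4HA2 and ANKRD37 did not pass either.

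Sorted by which steps passed, 29 members gave the same pair of calls in both guides, 13 of them with no call in either step. No share over all genes is at hand for this count or for the shared names given above. Such counts are descriptions only. GPI, PFKP, TPI1, PGK1, PGAM1, ENO1, LDHA and LDHB fell by day 6 and rose by day 7 in each. HK2, PDK1, HIF1A, EGLN1, KDM3A and BHLHE40 fell by day 6 with no passing change after. SLC16A1 rose and NDRG1 fell in the second step alone, and 13 members passed in neither step. Of the others, 8 fell in both steps in sgControl (SLC2A1, HK1, PFKL, PFKFB3, PFKFB4, BNIP3, BNIP3L and P4HA1), and all 8 fell only in the first step in sgRELA. Whether guides differ in such courses was tested by the interaction given with the guide comparison. Some of these sgControl calls were lost when 1 sample was left out. The second step was lost for HK1 without day 6 replicate 1 or 3 or day 7 replicate 1 or 2 (-0.30 to -0.36), and for PFKFB4 without day 6 replicate 1 or 3 or day 7 replicate 3 (-0.48 to -0.59). For SLC2A1 it was lost without day 6 replicate 3 (-0.34) or day 7 replicate 2 (-0.37). For SLC2A1 and PFKFB4 it was also lost without the libraries with few detected genes. The first step of PFKL was lost without any 1 sgControl replicate of day 5 or without day 6 replicate 2 or 3 (-0.27 to -0.37).

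**Figure D3:**
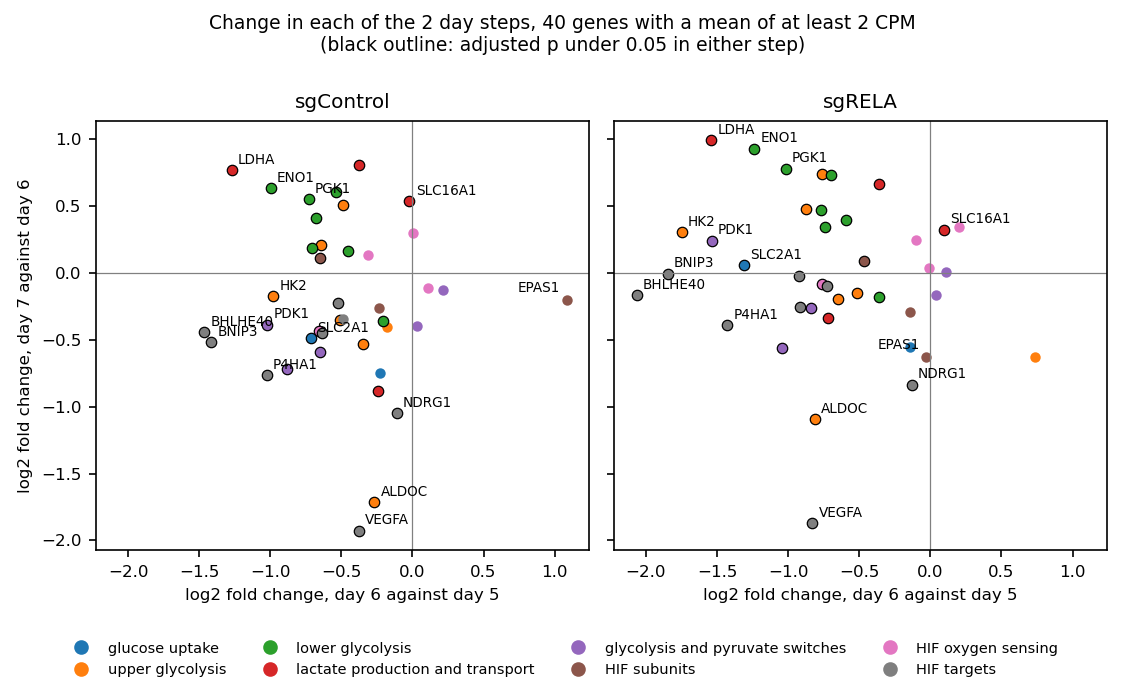
For each guide, the log2 fold change of day 6 against day 5 (x axis) is set against that of day 7 against day 6 (y axis) for the 40 members with a mean of at least 2 CPM, coloured by role; a black outline marks an adjusted p under 0.05 in either step. LDHA and the lower glycolysis genes other than ENO2 lie at the upper left, most HIF targets at the left near or below 0, and VEGFA at the bottom.

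Related genes outside the 45 were counted by list. Of 24 tested other HIF targets, 14 fell and 2 rose between day 5 and day 7 in sgControl (median log2 fold change -0.55), and 8 fell and 2 rose in sgRELA (-0.30). Counted in either direction, 13% of all genes passed in sgControl and 12.4% in sgRELA, or 25.3% and 24.4% of those of at least 5 CPM. STC2, a secreted glycoprotein, was at 44.6 to 54.4 CPM on day 5 and 7.03 to 8.07 on day 7 in sgControl (-2.73 ± 0.18) and at 42.5 to 47.1 and 3.11 to 6.08 CPM in sgRELA (-3.31 ± 0.19). FAM162A and WSB1 fell as well, with log2 fold changes of -1.13 and -1.13 in sgControl, whereas TFRC, the transferrin receptor and also an iron- and growth-regulated gene, rose by 0.93 and 0.66. The smaller lists held few calls. Of 14 tested other glycolysis genes 2 passed in each guide, near those shares: ENO3 fell and TIGAR, a phosphatase that lowers fructose 2,6-bisphosphate, rose in both guides, the latter by 0.52 and 0.84. In the pentose phosphate pathway 3 of 7 tested genes passed in each guide, among which, in both, TKT fell (-0.74 and -0.55) and RPIA rose by 0.56 and 0.58. Of 12 tested genes of pyruvate entry into mitochondria 2 passed in sgControl and 1 in sgRELA, near those shares: PDPR was lower in both (-0.45 and -0.33), and MPC1, a subunit of the mitochondrial pyruvate carrier, was higher in sgControl (0.60). Among 9 tested other HIF regulators 3 passed in each guide: RBX1, a subunit of the VHL ligase, rose (0.87 and 0.57) and the coactivators CREBBP and EP300 fell in both, with -0.60 and -0.27 in sgControl.

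The guides were then compared on each day. On day 5 no member passed with edgeR (0.138% of all genes did), and with DESeq2 none passed. At an unadjusted p under 0.05 there were 4 members, where 5.96% of all genes had one. With edgeR none passed on day 7 either (0.0907% of all genes), nor with DESeq2, and 3 had an unadjusted p under 0.05, where 4.68% of all genes did. Both unadjusted counts lie near the background. On day 6, 4 members were lower in sgRELA (0.214% of all genes passed in either direction) and 21 had an unadjusted p under 0.05, where 6.07% of all genes did. Among genes of at least 5 CPM that share was 8.72%, beside 20 of the 40 members. The median log2 difference of the members on that day was -0.23, with 35 of 45 below 0 (77.8%, against 50.4% of all genes). Averaged over the days, 3 members passed, all lower in sgRELA, where 0.388% of all genes did.

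The 4 genes of day 6 were SLC2A1, HK2, ALDOC and PFKFB3. SLC2A1 was at 55.6, 59.9 and 75.2 CPM in sgControl and 41.5, 31.5 and 41.4 in sgRELA, a log2 fold change of -0.74 ± 0.15 (adjusted p 0.0137). HK2 was at 76.6, 83.5 and 123 CPM in sgControl and 43.1, 53 and 68.1 in sgRELA (-0.79 ± 0.15, adjusted p 0.00629). For both genes, and for ALDOC (-0.55 ± 0.11, adjusted p 0.0219) and PFKFB3 (-0.55 ± 0.11, adjusted p 0.0251), all 3 sgRELA samples lay below all 3 sgControl samples. On day 5 the same differences were -0.14, -0.02, -0.0020 and -0.36, and on day 7 -0.19, -0.31, 0.07 and -0.22. Averaged over days, SLC2A1 (-0.36 ± 0.08, adjusted p 0.0476), HK2 (-0.37 ± 0.08, adjusted p 0.0314) and PFKFB3 (-0.38 ± 0.07, adjusted p 0.0019) passed.

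Each of these guide calls was lost under some settings, while the differences stayed below 0 in every setting run. Over the settings the day 6 difference was -0.87 to -0.60 for SLC2A1, -0.97 to -0.55 for HK2, -0.94 to -0.17 for ALDOC and -0.75 to -0.35 for PFKFB3. The averaged difference was -0.44 to -0.27 for SLC2A1, -0.52 to -0.25 for HK2 and -0.48 to -0.27 for PFKFB3. On day 6 no member passed without sgControl replicate 3 or without sgRELA replicate 2, and 1 passed (SLC2A1) without sgRELA replicate 1. With sgControl replicate 1 left out, 10 members passed, among them LDHA, PGK1, ENO1, PDK1, BNIP3 and P4HA1, and without the 2 libraries with few detected genes 7 did. Averaged over days, PFKFB3 passed in each of the 18 fits that left out 1 sample, but not with either library alone nor without the 2 libraries with few detected genes. In that averaged comparison only PFKFB3 passed without any 1 of 8 samples: sgControl day 5 replicate 2, day 6 replicate 3 or day 7 replicate 1 or 3, or sgRELA day 5 replicate 1, day 6 replicate 1 or 2 or day 7 replicate 1. Whether the guide difference itself varied with day was tested as an interaction. No member passed with edgeR (0.00363% of all genes, that is 1 gene, did) and 1 with DESeq2, ALDOC, while 9 had an unadjusted p under 0.05 with edgeR (4.69% of all genes did), the smallest for ALDOC (0.000931) and HK2 (0.00282). A guide effect particular to day 6 is therefore not shown.

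**Figure D4:**
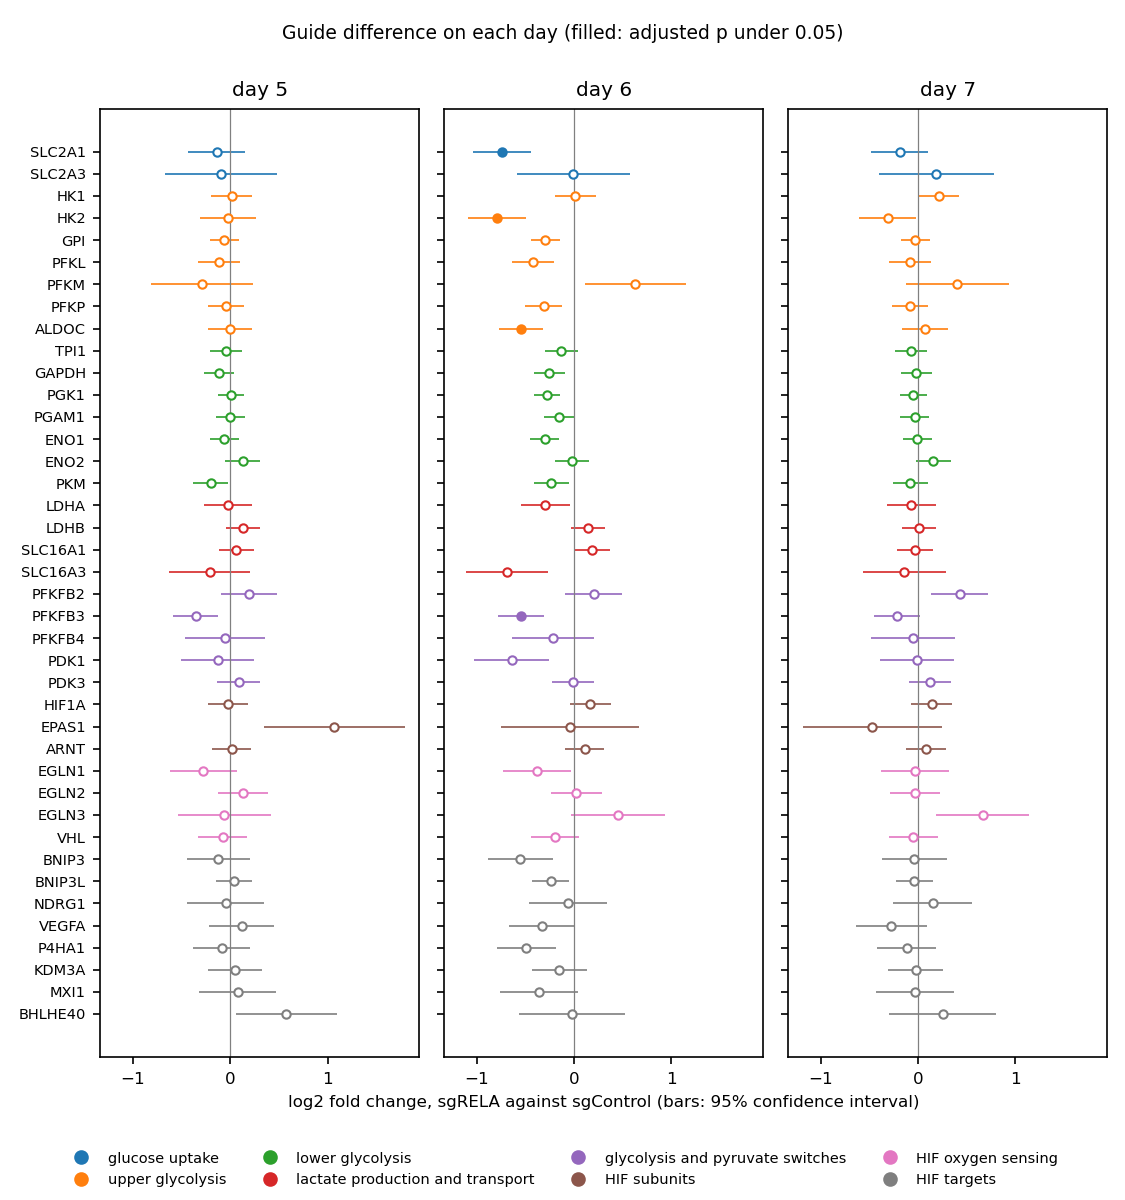
The log2 fold change of sgRELA against sgControl (x axis, bars are 95% confidence intervals) on days 5, 6 and 7 for the 40 members with a mean of at least 2 CPM, coloured by role. Filled points have an adjusted p under 0.05: SLC2A1, HK2, ALDOC and PFKFB3 on day 6, and none on days 5 or 7.

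For some of the HIF genes the guide comparison gave narrow bounds. HIF1A RNA differed between guides by -0.02 on day 5, 0.17 on day 6 and 0.14 on day 7, and by 0.09 averaged over days (95% interval -0.03 to 0.21, log2 scale). Averaged values were 0.07 (-0.05 to 0.18) for ARNT and -0.11 (-0.25 to 0.04) for VHL. EPAS1 varied more, at 1.07 on day 5 and -0.47 on day 7, and passed on no day. EGLN1 was lower in all 3 sgRELA samples than in all 3 sgControl samples on day 5, and did not pass. EGLN3 was higher in all 3 sgRELA samples than in all 3 sgControl samples on days 6 and 7, with a log2 difference of 0.66 on day 7 (95% interval 0.18 to 1.14, adjusted p 0.94), and did not pass. For LDHA, PGK1 and ENO1 the day 6 log2 fold changes of sgRELA against sgControl were -0.30, -0.28 and -0.30 with adjusted p of 0.7, 0.0855 and 0.0855, and did not pass either. On day 6 the summed T cell markers were 3494 to 3707 CPM in sgControl and 3911 to 4120 CPM in sgRELA, whose part in the guide differences was not tested.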

How the data were processed

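The authors deposited raw counts per gene for 36 libraries in 1 table. Per the submitters' processing notes the tools were cutadapt 1.18 and STAR 2.7.9a with GRCh38. The counting tool, annotation, strand setting and treatment of multi-mapping reads are not given in the sources used here. Gene symbols were looked up by Ensembl ID, coordinates and exon lengths from GENCODE v29 on GRCh38, and promoters from RefSeq.

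Counts of the 2 libraries of each RNA were added. One edgeR 4.0.16 model (R 4.3.3) held a mean for each of the 6 groups, with TMM scaling, filterByExpr (minimum count 10), which all 45 members passed, and the quasi-likelihood F test. P-values were adjusted by Benjamini-Hochberg over 27553 genes and called under 0.05. Values after ± are SE for log2 fold changes, derived from F. The test was run on simulated counts first. The labels give transductions in triplicate but not whether each day had its own cultures, so p-values measure only the spread between these samples. Intervals and floors cover counting error only where they rest on counts.

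The members and lists were chosen with earlier results of these data known. Values by sample are given for the 12 members with the smallest p in sgControl among those that both guides moved in 1 direction between day 7 and day 5, 16 members fixed by name, and any called between guides; other members were added after their values were seen. Alternatives were DESeq2 1.42.0, its size factors, no mitochondrially encoded genes, no filter, each library alone, no libraries with few detected genes, a replicate block and leaving out each replicate.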

Additional observations from a re-analysis of the deposited data

How the results depend on the processing

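Day counts of members (sgControl 24, 22 and 30 called for day 6 against 5, 7 against 6 and 7 against 5; sgRELA 30, 14 and 29) stayed within 1.5 times under the alternatives other than library 1 alone, which gave 13, 14 and 19 in sgControl and 17, 9 and 14 in sgRELA. Leaving out a replicate gave 22 to 25, 17 to 26 and 28 to 31 in sgControl and 27 to 29, 12 to 15 and 26 to 28 in sgRELA. The day 6 guide count of 4 became 0 with library 1 alone, 1 with library 2 alone, 8 with DESeq2, 7 without the 2 libraries with few detected genes and 0 to 10 without a replicate. The averaged guide count of 3 became 0 with library 1 alone, 1 with library 2 alone, 1 without the 2 libraries, 5 with no filter and 1 to 4 without a replicate. The interaction count of 0 became 1 with DESeq2 (ALDOC) and 1 with no filter (HK2). A single library has a lower depth than the sum, and other causes were not tested.

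No pairing by replicate number was seen: deviations of same-numbered samples correlated at -0.208 to 0.060 within a guide and -0.050 to 0.100 across guides. Samples with different numbers correlated at -0.138 to 0.246 within a guide and -0.092 to 0.081 across guides. With 3 samples per group this cannot tell whether days shared cultures. A replicate block gave 25, 21 and 30 calls in sgControl and 30, 14 and 29 in sgRELA, and 0, 5 and 0 between guides on days 5, 6 and 7, 2 averaged and 0 for the interaction.

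Of 1599 single-gene values over 105 results, 15 changed sign. Another 135 kept their sign but lost the call, and 5 kept their sign and gained one. For VHL, day 7 against day 5 in sgControl was -0.0032 and became 0.0026 with DESeq2, 0.0026 with its size factors, 0.0018 with no filter, 0.0119 with library 1 alone, 0.0924 without the 2 libraries, 0.0017 with the replicate block, 0.0036 with the replicate block within guide and -0.0781 to 0.1014 without a replicate. In sgRELA VHL went to -0.0955 with library 1 alone and -0.0376 to 0.1043 without a replicate. EGLN3 in sgControl went to 0.1962 with library 1 alone, and ADM in sgRELA to -2.5987 to 0.0509 without a replicate.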
